A study of Caenorhabditis elegans with 6 samples.

Results

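The cytochrome P450 genes of Caenorhabditis elegans were examined in worms that lack the microRNA miR-243. Members were all genes on the array whose symbol starts with cyp-, together with daf-9, which encodes a cytochrome P450 under another name. There were 75 such genes among 18124 matched genes, measured by 78 probes, since cyp-13B1, cyp-31A2 and cyp-42A1 had a pair of probes each. A further 6 genes of the same kind in the reference table had no matching probe, namely cyp-13A9, cyp-13A11, cyp-25A3, cyp-31A1, cyp-35A1 and cyp-35D2. Genes entered the list by name and not by any measured value. The list itself, like the gene lists below, was chosen with earlier results of these data known.

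The mutant worms carried the deletion allele n4759 of mir-243 and the wild type was the strain N2, both grown at 20 °C. Both were young adults by the study's methods, and a difference in exact stage between them was not tested. RNA of whole animals was compared, and the mutant was represented by 1 allele. Mutant and wild-type cDNA were hybridised together in 3 biological replicates, each measured on a pair of arrays with the dyes exchanged, which gave 6 arrays and n = 3. In RNA of whole worms, fewer cells of a type and less RNA per cell cannot be told apart.

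Cytochrome P450 enzymes are haem proteins that insert an oxygen atom into small, mostly fatty molecules. Those in the endoplasmic reticulum take their electrons from a reductase, and many also from cytochrome b5. In worms, members of the family make the steroid hormones called dafachronic acids, oxidise polyunsaturated fatty acids to eicosanoids, contribute lipids to the eggshell and act on foreign compounds, the last mainly in the intestine. Many lie in tandem arrays of similar genes. Where coding sequences are similar, a probe may also bind the transcript of a neighbour. The probe sequences were not used here, so cross-hybridisation between close relatives was not tested.

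Spots of gene probes had a median of 237 to 318 intensity units per array in Cy3, where the local background was 59 to 64, and of 370 to 647 in Cy5, where it was 133 to 136.5. Depending on array and channel, the scanner software marked 74.8% to 83.0% of these spots as well above background. The 3 replicates correlated with each other at r = 0.987 to 0.990 over 16272 tested probes, and probes are not replicates. No probe of mir-243 was matched. The one probe of Y47H10A.5, the transcript from which miR-243 triggers small interfering RNAs, read 899, 862 and 929 units in mutant worms, against 445, 439 and 402 units in N2 worms.

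A probe was tested when at least 1 genotype was well above background on at least 4 of 6 arrays and all 3 replicates gave a value. A call of higher or lower needed a fold of at least 2 and a limma p under 0.05 after Benjamini-Hochberg adjustment over all tested probes. Signals include an offset of 50, which draws the ratios of dim probes towards 0. Of the 78 cytochrome P450 probes, 66 were tested, of 63 genes. Among the 12 that were not, 11 were well above background on fewer than 4 of 6 arrays in both genotypes (cyp-13A8, cyp-25A6, cyp-29A4, cyp-33C1, cyp-33C11, cyp-33C12, cyp-34A3, cyp-35A3, cyp-35A4, cyp-35A5 and cyp-35B3). Of these, cyp-35A4 was so on 1 array in mutant worms and on 3 in N2 worms, and the others on 0. The other, cyp-34A7, was well above background on 6 of 6 arrays in both genotypes but lacked a value in replicate 1. It read 145 and 145 units in mutant worms and 183 and 194 units in N2 worms in replicates 2 and 3.

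Cytochrome P450 genes moved in both directions in mir-243 worms. Of the 66 probes, 9 were called higher (13.6%) and 9 lower (13.6%). Over all tested probes, 9.1% were called higher and 7.17% lower. The called probes belonged to 7 genes that were higher, cyp-14A5, cyp-13B1, cyp-23A1, cyp-42A1, cyp-13A5, cyp-13A4 and cyp-13A10, and to 9 genes that were lower, cyp-13B2, cyp-25A1, cyp-14A2, cyp-31A5, cyp-14A4, cyp-14A3, cyp-31A2, cyp-31A3 and cyp-34A9. Without the fold threshold, 23 probes passed higher and 31 lower, which is 34.8% and 46.97% of those tested, against 42.2% and 41.3% over all tested probes. The median log2 ratio was -0.09 over the 66 probes, where the 3 replicate medians had an SD of 0.0171, and -0.01 over all tested probes.

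The 18 called probes kept their sign on 6 of 6 arrays, were free of saturated spots and gave signals that did not overlap between the genotypes. These traits were not particular to them, and a call makes them likely. Of the 66 tested members, 51 kept their sign on 6 arrays and 50 had signals without overlap. The share over all tested probes was not worked out. In 16 of the 18, the fold was at least 2 in each replicate. The exceptions were cyp-13A10 (log2 ratio of 0.94 in replicate 2) and cyp-34A9 (-0.98 in replicate 2). Between replicates, the log2 ratios of members had a median SD of 0.0726 and a largest SD of 0.213. The adjusted p of a called probe was between 6.67e-15 and 3.93e-10. The exact sign-flip permutation test of 3 values cannot give a p below 0.25, and each called probe gave that p. Replicates 1 and 2 shared a slide and replicate 3 lay on another. Of the 66 tested probes, 63 had the same sign on both slides. All 54 that passed the adjusted p alone did so, but that test used the same 3 replicates, so their agreement is no separate check.

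**Figure D1:**
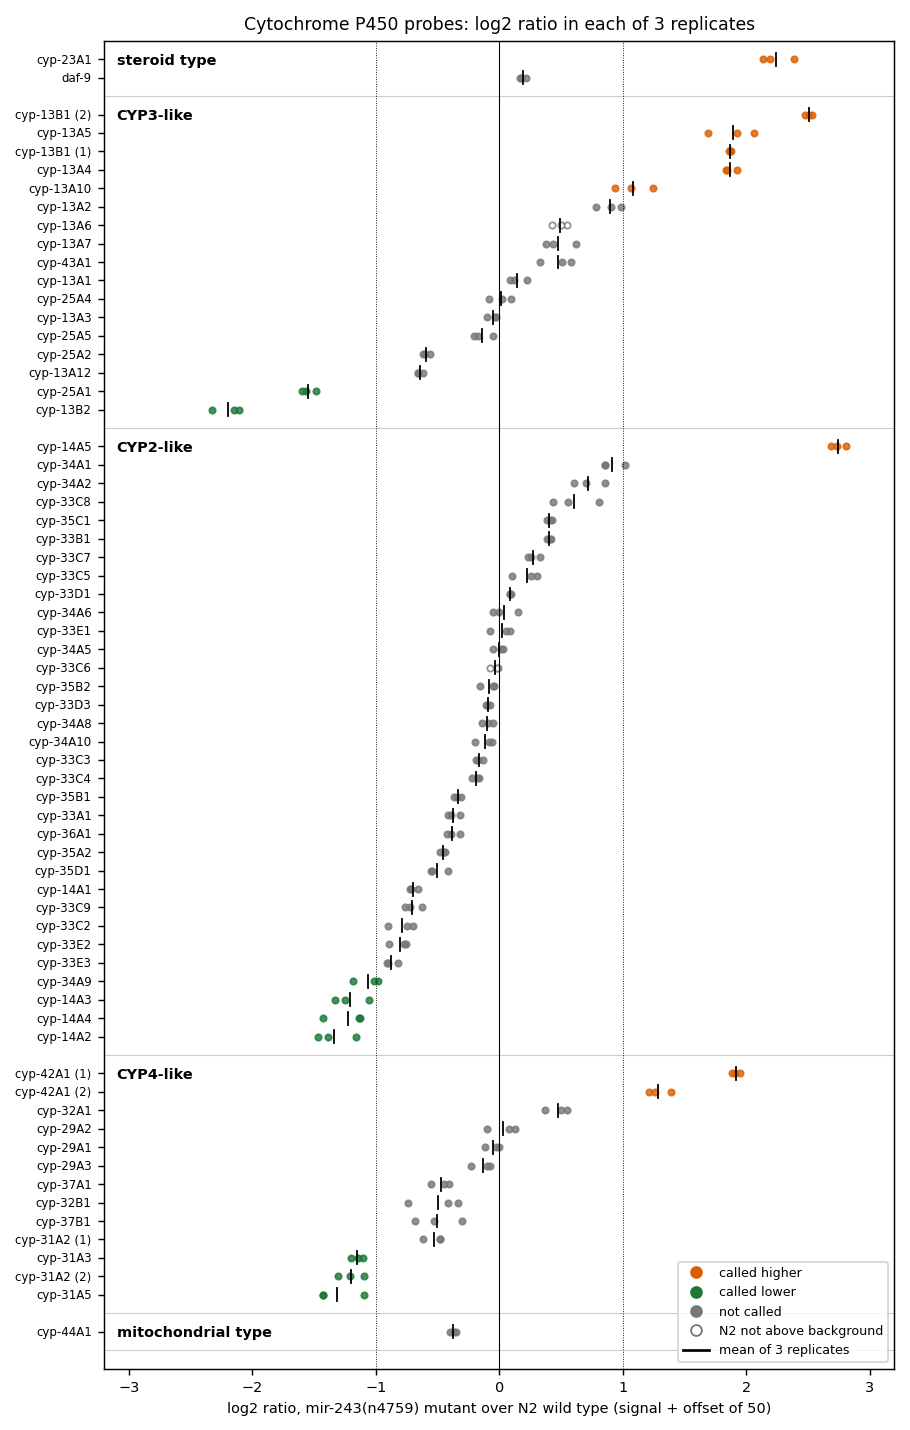
Log2 ratio of mir-243(n4759) mutant over N2 worms (x axis, on the scale of signal plus 50) for the 66 tested cytochrome P450 probes (rows, grouped by type), with 1 point per replicate and a bar at the mean of 3. Open points mark cyp-13A6 and cyp-33C6, whose N2 signals passed the background test on 0 of 6 arrays. The dotted lines mark a fold of 2, and the 18 called probes lie between -2.20 and -1.06 and between 1.08 and 2.74.

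The steroid-type members comprised daf-9 and cyp-23A1. DAF-9 carries out the last step in the synthesis of dafachronic acids, the ligands of the nuclear receptor DAF-12, and is made in a pair of neuroendocrine cells and in the epidermis. The daf-9 probe gave 323, 417 and 372 units in mutant worms, against 287, 359 and 330 units in N2 worms. The mutant was the higher within each replicate, while the ranges of the genotypes overlapped. Its log2 ratio was 0.19 ± 0.0258 (SD, n = 3), which passed the test in limma (adjusted p = 0.00106) at a fold of 1.14 and was not called. For cyp-23A1, signals were 1512, 1734 and 1308 units in mutant worms, against 289, 380 and 298 units in N2 worms. This was 4.72-fold higher (2.24 ± 0.133, log2, SD, n = 3, limma adjusted p = 1.6e-13), with every mutant value above every N2 value.

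Among the CYP3-like members, the relatives of the drug-oxidising CYP3A enzymes of mammals, 17 probes were tested. Of these, 5 were called higher (29.4%) and 2 lower (11.8%), against 9.1% and 7.17% over all tested probes. The cyp-13B pair ran in opposite directions. The probe for the transcript F02C12.5c of cyp-13B1 read 12610, 12111 and 12638 units in mutant worms, against 2266, 2088 and 2226 units in N2 worms, a 5.68-fold increase (log2 ratio of 2.51 ± 0.0299, SD, n = 3). The probe listed for F02C12.5a of the same gene gave 1309, 1093 and 1441 units in mutant worms, against 361, 297 and 396 units in N2 worms, and a log2 ratio of 1.87 ± 0.00993 (SD, n = 3). Both probes of cyp-13B1 were thus far apart between the genotypes in every replicate. Its relative cyp-13B2 gave 108, 117 and 107 units in mutant worms, against 546, 505 and 474 units in N2 worms. This was 4.59-fold lower (-2.20 ± 0.118, log2, SD, n = 3, limma adjusted p = 1.32e-13) and the largest decrease of any member. The mutant signal was low, and the scanner's processed signals, to which no offset was added, gave a log2 ratio of -3.40.

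In the cyp-13A family, 9 of 10 probes were tested, 3 were called higher (33.3%) and none was called lower. Over all tested probes, 9.1% were called higher and 7.17% lower. With 9 probes, the lack of a lower call is not read as a result. The neighbours cyp-13A4 and cyp-13A5 were both higher, with similar ratios. For cyp-13A4, signals were 2880, 2861 and 2796 units in mutant worms and 803, 803 and 736 units in N2 worms (log2 ratio of 1.87 ± 0.0508, SD, n = 3). For cyp-13A5 they were 4198, 3315 and 4330 units in mutant worms and 1104, 1030 and 1036 units in N2 worms (log2 ratio of 1.89 ± 0.191, SD, n = 3). Mutant and N2 values of both genes were well separated. The third, cyp-13A10, lies apart from them on the same chromosome and was 2.12-fold higher, with 951, 872 and 1071 units in mutant worms and 455, 454 and 451 units in N2 worms. Its log2 ratio of 1.08 ± 0.155 (SD, n = 3) was 0.98 without background correction and 0.84 with the mutant in Cy5 only, where it was not called.

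cyp-13A12, whose product oxidises fatty acids when worms return to oxygen after hypoxia, was lower without reaching a fold of 2. Its probe read 262, 261 and 247 units in mutant worms, against 403, 412 and 389 units in N2 worms (-0.64 ± 0.0206, log2, SD, n = 3, limma adjusted p = 5.74e-09), with no overlap. cyp-13A6 was well above background on 5 of 6 arrays in mutant worms and on 0 of 6 in N2 worms. Its N2 signal was therefore only a bound. It entered the test only through mutant worms, where it was higher, so its p is not given. With the main processing it was at least 1.4-fold higher, and this limit does not hold for other settings. Among those, its log2 ratio ran from 0.29 to 2.22, the value with the scanner's processed signals. The size of its increase thus depended on the processing.

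The remaining CYP3-like genes were cyp-25A and cyp-43A members. cyp-25A1 read 164, 165 and 174 units in mutant worms, against 487, 461 and 528 units in N2 worms, a 2.93-fold decrease (-1.55 ± 0.0604, log2, SD, n = 3, limma adjusted p = 1.25e-12). cyp-25A4 was one of the 3 members nearest to 0, with 472, 490 and 497 units in mutant worms and 499, 459 and 490 units in N2 worms (0.01 ± 0.0874, log2, SD, n = 3, limma adjusted p = 0.828). The log2 ratio of cyp-43A1, at 0.47 ± 0.127 (SD, n = 3), passed the test in limma (adjusted p = 1.2e-06).

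The CYP2-like members formed the largest group, with 42 probes of which 33 were tested. Their range was wide, and 1 was called higher (3.0%) and 4 were called lower (12.1%). Over all tested probes, 9.1% were called higher and 7.17% lower. cyp-14A5 showed the largest increase of any member. It gave 3075, 3435 and 3253 units in mutant worms, against 438, 533 and 489 units in N2 worms, which was 6.7-fold higher (2.74 ± 0.0628, log2, SD, n = 3, limma adjusted p = 6.67e-15). Mutant values were far above all N2 values, and the 6 arrays lay between 2.56 and 2.85.

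The other 4 genes of the cyp-14A family ran the opposite way. cyp-14A2 read 157, 172 and 163 units in mutant worms, against 435, 383 and 426 units in N2 worms (log2 ratio of -1.34 ± 0.161, SD, n = 3). cyp-14A3 read 113, 121 and 105 units in mutant worms, against 269, 250 and 265 units in N2 worms (log2 ratio of -1.21 ± 0.144, SD, n = 3). cyp-14A4 read 233, 240 and 204 units in mutant worms, against 626, 527 and 444 units in N2 worms (log2 ratio of -1.23 ± 0.173, SD, n = 3). In these 3 genes, every mutant value was below every N2 value, and limma's adjusted p was at most 1.8e-10. Without background correction cyp-14A3 was at -0.91 (log2) and not called. The fourth, cyp-14A1, at -0.70 ± 0.0342 (log2, SD, n = 3), passed the test in limma (adjusted p = 2.61e-09) without reaching a fold of 2.

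**Figure D2:**
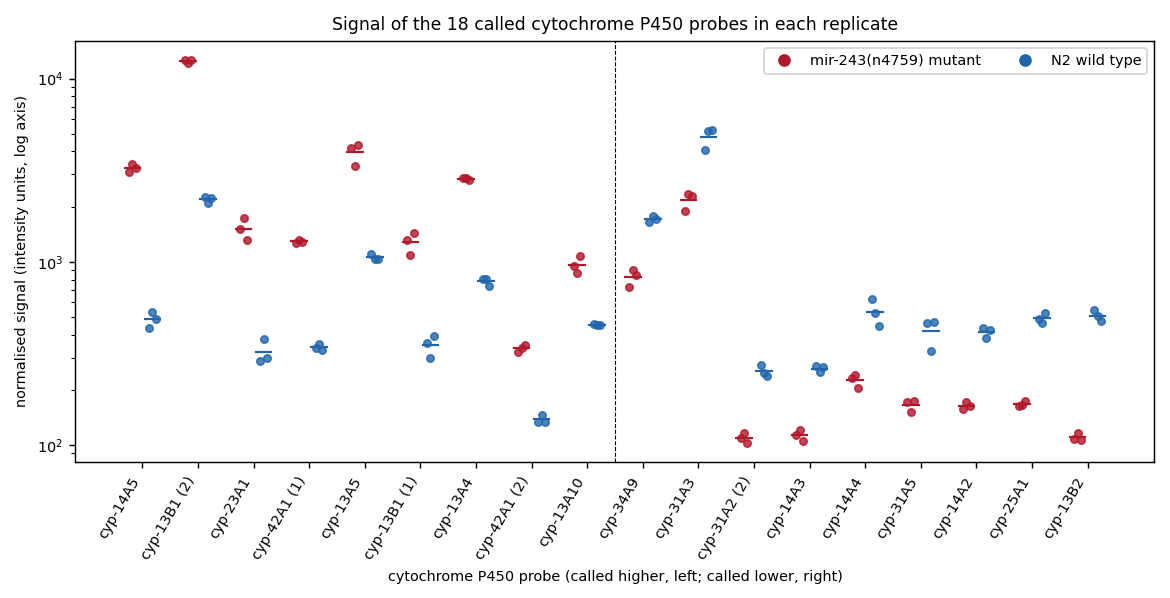
Normalised signal in intensity units (y axis, log scale) of the 18 called probes in mir-243(n4759) mutant worms (left points of each pair) and N2 worms (right points), with 1 point per replicate and a bar at the mean of 3. The 18 were chosen for their fold and adjusted p, and the genotypes do not overlap in any of them. Levels may be compared within a probe but not between probes.

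Members of the cyp-34A and cyp-35 families are known for their response to foreign compounds and to insulin-like signalling. cyp-34A9, also called dod-16 for its place downstream of the transcription factor DAF-16, was the only called member of these families. Its probe gave 727, 898 and 846 units in mutant worms, against 1651, 1773 and 1712 units in N2 worms, which was 2.09-fold lower (-1.06 ± 0.107, log2, SD, n = 3, limma adjusted p = 1.4e-10). It stood close to the threshold, and its log2 ratio was -0.9999 without replicate 1 and -0.97 with the mutant in Cy3 only, neither of which was called. cyp-35B1, or dod-13, another gene named in that way, read 88.7, 79.2 and 81.6 units in mutant worms. In N2 worms it read 115, 100.2 and 101 units (-0.34 ± 0.0316, log2, SD, n = 3). It was dim, being well above background on 1 of 6 arrays in mutant worms and 5 of 6 in N2 worms. It thus entered the test only through N2 worms, where it was higher, so its p is not given. The scanner's own processed signals gave it a log2 ratio of -1.40.

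Of the 9 probes of the cyp-35 families, 5 were tested, 1 of which passed the adjusted p higher and 3 lower. The shares over all tested probes were 42.2% and 41.3%. Of the 3, cyp-35B1 and cyp-35D1 entered the test only through N2 worms, where they were higher, so this count is not read as a result. cyp-35A2, which affects fat storage and responds to foreign compounds, gave 118.8, 121 and 116 units in mutant worms and 162, 169 and 158 units in N2 worms (-0.46 ± 0.0218, log2, SD, n = 3, limma adjusted p = 2.25e-07). cyp-35D1, at -0.50 ± 0.0802 (log2, SD, n = 3), was well above background on 1 of 6 arrays in mutant worms and 6 of 6 in N2 worms. For this gene, too, the scanner's processed signals gave a larger ratio, -1.87. cyp-35C1 had a ratio of 0.41 ± 0.0209 (log2, SD, n = 3, limma adjusted p = 7.92e-07), and was the member of the group that rose.

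None of the 15 tested probes of the cyp-33 families was called, while 4 passed the adjusted p higher and 7 lower. Over all tested probes, 42.2% passed higher and 41.3% lower, while 9.1% were called higher and 7.17% lower. Of the 4, cyp-33C5 entered the test only through mutant worms, where it was higher. cyp-33E2, which is expressed in the pharynx and takes part in eicosanoid synthesis, gave 270, 167 and 242 units in mutant worms, against 501, 281 and 412 units in N2 worms. The ratio was steadier than the signals, at -0.80 ± 0.0757 (log2, SD, n = 3, limma adjusted p = 1.19e-09), and both genotypes had their lowest signal in replicate 2. Its neighbour cyp-33E3 lay at -0.88 ± 0.0479 on the same scale (SD, n = 3, limma adjusted p = 2.97e-10). The third of that family, cyp-33E1, was nearest to 0 together with cyp-25A4 and cyp-34A5, at 0.02 ± 0.0847 (log2, SD, n = 3, limma adjusted p = 0.684). cyp-34A5 read 159, 178 and 183 units in mutant worms and 158, 174 and 190 units in N2 worms (limma adjusted p = 0.935).

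cyp-33C2 had the largest ratio among the tested cyp-33C genes, -0.78 ± 0.107 (log2, SD, n = 3, limma adjusted p = 3.17e-09). With the scanner's processed signals it was called lower, at -1.43, as were cyp-33E2 at -1.12 and cyp-33E3 at -1.08. cyp-33A1 and cyp-33B1 had -0.38 ± 0.0494 and 0.40 ± 0.0173 (log2, SD, n = 3 each). Neither tested cyp-33D probe passed the test, and the ratio of larger size was -0.09 ± 0.0189 for cyp-33D3 (log2, SD, n = 3, limma adjusted p = 0.0547). cyp-33C6 was well above background on 5 of 6 arrays in mutant worms and on 0 of 6 in N2 worms, at 91.3, 96.5 and 82.2 units in mutant worms and 91.9, 97.6 and 86.6 units in N2 worms, and no fold is given for it. cyp-36A1, which acts downstream of the hypoxia factor HIF-1, gave 427, 477 and 465 units in mutant worms and 575, 597 and 610 units in N2 worms (-0.38 ± 0.0536, log2, SD, n = 3, limma adjusted p = 2.25e-06).

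Of the 13 tested probes of the CYP4-like members, the relatives of fatty acid hydroxylases, 2 were called higher (15.4%) and 3 lower (23.1%). Over all tested probes, these shares were 9.1% and 7.17%. Both higher probes belonged to cyp-42A1. One gave 1273, 1317 and 1285 units in mutant worms, against 338, 357 and 332 units in N2 worms (log2 ratio of 1.92 ± 0.0343, SD, n = 3). The other gave 320, 340 and 352 units in mutant worms, against 134, 147 and 134 units in N2 worms (log2 ratio of 1.29 ± 0.0944, SD, n = 3). Both placed all mutant values above all N2 values, at a fold of 3.77 and of 2.44.

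All 3 cyp-31A genes on the array were lower in mutant worms. CYP-31A2 and CYP-31A3 act redundantly in making lipids of the eggshell. cyp-31A3 read 1890, 2333 and 2283 units in mutant worms, against 4060, 5150 and 5255 units in N2 worms (-1.15 ± 0.0505, log2, SD, n = 3, limma adjusted p = 2.12e-11). The probes of cyp-31A2 did not give the same size of change. One read 110, 116 and 103 units in mutant worms, against 272, 248 and 238 units in N2 worms (log2 ratio of -1.20 ± 0.107, SD, n = 3). The other read 565, 752 and 559 units in mutant worms, against 789, 1157 and 780 units in N2 worms (log2 ratio of -0.53 ± 0.0811, SD, n = 3), and so was lower but not called. Without background correction the first of these was not called either, at -0.92 (log2). cyp-31A5 read 172, 152 and 175 units in mutant worms, against 463, 325 and 469 units in N2 worms (-1.32 ± 0.193, log2, SD, n = 3, limma adjusted p = 1.55e-10). cyp-31A2 and cyp-31A3 are very similar genes, and which transcript each probe measured was not tested. Oocyte markers were lower in the same worms, with a median log2 ratio of -2.01 over 6 tested probes, and their part in the ratios of the cyp-31A genes was not tested.

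None of the other tested CYP4-like genes was called. On the log2 scale, cyp-32A1 stood at 0.48 ± 0.0919, cyp-32B1 at -0.50 ± 0.213, cyp-37A1 at -0.47 ± 0.0723 and cyp-37B1 at -0.50 ± 0.193 (SD, n = 3 each), all of which passed the adjusted p in limma. cyp-29A3, which makes eicosanoids from polyunsaturated fatty acids, gave 215, 264 and 215 units in mutant worms and 252, 278 and 230 units in N2 worms. The genotypes overlapped and its log2 ratio was -0.13 ± 0.0813 (SD, n = 3, limma adjusted p = 0.0158), negative on 4 of 6 arrays. With the mutant in Cy3 only, it was 0.04. cyp-44A1, the one P450 of the mitochondrial type, gave 217, 262 and 277 units in mutant worms and 277, 346 and 357 units in N2 worms (-0.37 ± 0.024, log2, SD, n = 3, limma adjusted p = 1.91e-06).

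Many members are neighbours in the genome, and the reference table gave 12 runs, with 48 genes in all, in which successive cytochrome P450 genes had no more than 3 other protein-coding genes between them. Of these runs, 4 held a called gene. The run from cyp-13A1 to cyp-13A8 held 2 called higher, and that from cyp-14A1 to cyp-14A4 held 3 called lower. The runs with cyp-25A1 and with cyp-34A9 held 1 called gene each, so they could not hold both directions. The cyp-14A family divided by position: the 4 genes that were lower form 1 run on chromosome X, with log2 ratios of -1.34 to -0.70, whereas cyp-14A5 lies on chromosome V. Within the run of 9 genes on chromosome II from cyp-13A1 to cyp-13A8, ratios differed between adjacent genes. They were 0.14 for cyp-13A1, 0.89 for cyp-13A2 and -0.05 for cyp-13A3, then 1.87 and 1.89 for cyp-13A4 and cyp-13A5, and 0.48 for cyp-13A7. The N2 signal of cyp-13A6, which lies between cyp-13A5 and cyp-13A7, passed the background test on 0 of 6 arrays, so it has no place in this order. cyp-13A2 was well above background on 6 of 6 arrays in mutant worms and on 4 of 6 in N2 worms, and reached 1.91 with the scanner's processed signals. The pair cyp-34A1 and cyp-34A2 on chromosome V had log2 ratios of 0.91 and 0.72, neither of which was called. cyp-34A1 was well above background on 6 of 6 arrays in mutant worms and on 1 of 6 in N2 worms, and the scanner's processed signals gave it a ratio of 2.67, which was called. In the run of 10 genes on the same chromosome from cyp-35A5 to cyp-34A10, the ratio was -1.06 for cyp-34A9 and between -0.34 and 0.03 for the other 6 tested genes.

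**Figure D3:**
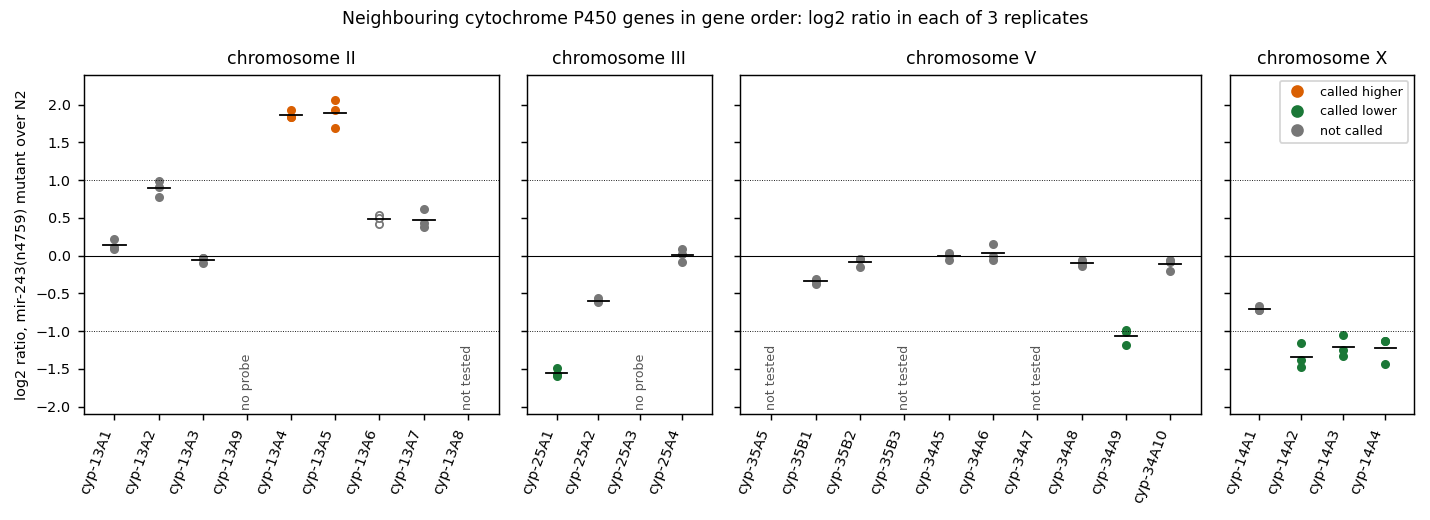
Log2 ratio of mir-243(n4759) mutant over N2 worms (y axis) for the 4 runs of neighbouring cytochrome P450 genes that hold a called gene, in gene order along the x axis, with 1 point per replicate and a bar at the mean of 3. Open points mark cyp-13A6, whose N2 signal was only a bound. On chromosome II, cyp-13A4 and cyp-13A5 are the called genes, while all 4 cyp-14A genes on chromosome X lie below 0.

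Genes whose products work with these enzymes were examined in short lists. Over all tested probes, 42.2% passed the adjusted p higher and 41.3% lower, while 9.1% were called higher and 7.17% lower. Among 7 genes for electron donors and haem supply, 6 were tested, none was called, and 3 passed the adjusted p higher and 2 lower, with a median log2 ratio of 0.22. The reductase EMB-8, which passes electrons to the P450s of the endoplasmic reticulum, gave 6073, 7030 and 7395 units in mutant worms and 6048, 7583 and 7631 units in N2 worms, with overlap of the genotypes (-0.05 ± 0.0578, log2, SD, n = 3, limma adjusted p = 0.306).

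All 9 genes of the dafachronic acid pathway, daf-9 included, were tested. By the adjusted p alone, 7 passed higher and 1 lower, where the shares over all tested probes were 42.2% and 41.3%. Called genes numbered 2, both higher, where 9.1% of all tested probes were called higher. The larger increase was in strm-1, which encodes a sterol methyltransferase that diverts precursors from dafachronic acid synthesis. Its probe gave 2341, 1945 and 1871 units in mutant worms, against 336, 326 and 306 units in N2 worms (2.66 ± 0.119, log2, SD, n = 3, limma adjusted p = 2.31e-14). dhs-16, for a dehydrogenase of the pathway, gave 238, 197 and 241 units in mutant worms, against 102, 112 and 109 units in N2 worms (log2 ratio of 1.06 ± 0.217, SD, n = 3). Both were separate between the genotypes. The receptor gene daf-12 reached 0.48 ± 0.0101 (log2, SD, n = 3, limma adjusted p = 1.41e-07), and daf-36, for the oxygenase at the start of the pathway, -0.05 ± 0.064 (SD, n = 3, limma adjusted p = 0.315).

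Of the 6 eicosanoid partners, which are fatty acid desaturases and epoxide hydrolases, 5 were tested and all 5 passed the adjusted p higher, with a median log2 ratio of 0.76. fat-3, for a desaturase of polyunsaturated fatty acid synthesis, was the called one, with 11574, 12778 and 11678 units in mutant worms, against 5261, 6313 and 5446 units in N2 worms (log2 ratio of 1.09 ± 0.0616, SD, n = 3). Of the 5 eggshell lipid partners, 1 passed the adjusted p higher and 2 lower, and perm-1, needed for the permeability barrier of the eggshell, was the called one. It read 352, 290 and 350 units in mutant worms, against 1420, 1078 and 1411 units in N2 worms (-1.97 ± 0.0672, log2, SD, n = 3, limma adjusted p = 1.31e-13). No gene was called among the 7 tested probes of the hypoxia pathway, of which 5 passed the adjusted p higher and 1 lower. None was called among the 12 tested probes of xenobiotic regulators, of which 6 passed higher and 3 lower. For these lists, too, the shares over all tested probes were 42.2% passing higher and 41.3% lower.

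**Figure D4:**
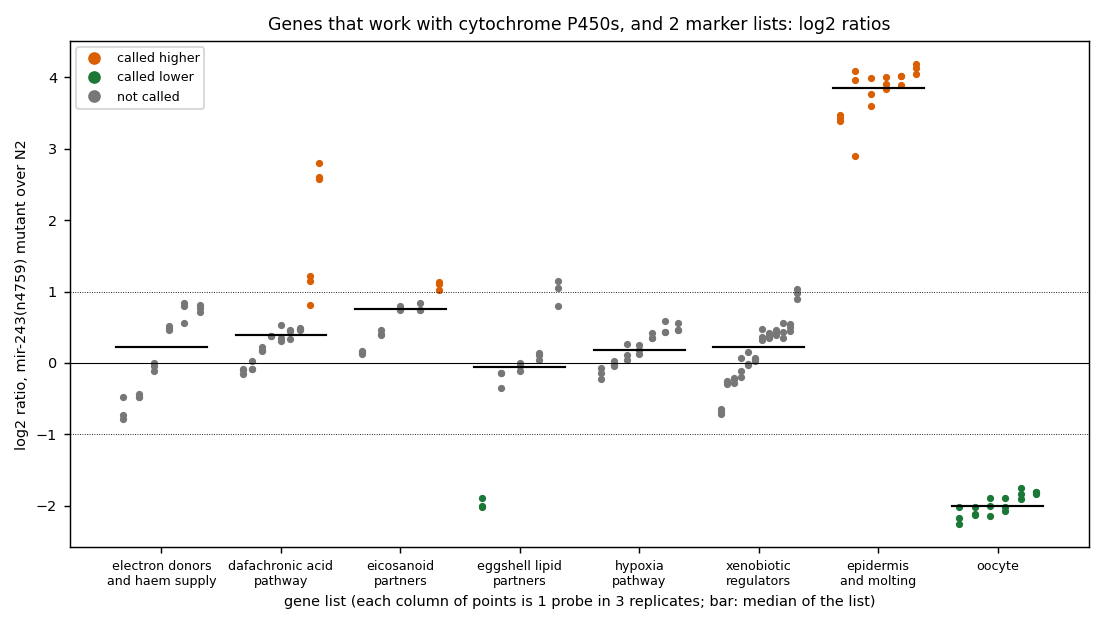
Log2 ratio of mir-243(n4759) mutant over N2 worms (y axis) for the tested probes of 6 lists of genes that work with cytochrome P450s and of 2 lists of cell type markers (x axis), with each column of points showing 1 probe in 3 replicates and a bar at the median of the list. The epidermis and molting markers lie around 3.85 and the oocyte markers around -2.01, farther from 0 than the medians of the 6 partner lists.

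Markers of several cell types differed between the genotypes. The shares over all tested probes were 42.2% passing the adjusted p higher and 41.3% lower, with 9.1% called higher and 7.17% lower. Of 7 oocyte markers, 6 were tested and all 6 were called lower, with a median log2 ratio of -2.01 and a summed signal of 44878 to 46261 units in mutant worms, against 180755 to 204839 units in N2 worms. The markers had log2 ratios of -2.15 to -1.82, a range that held perm-1 at -1.97, while the cyp-31A probes lay between -1.32 and -0.53. With the scanner's processed signals, to which no offset was added, the dimmer probe of cyp-31A2 was at -2.32. The markers' ratios with those signals are not given here, so this value cannot be set against their range. All 6 tested germ line markers passed the adjusted p lower, 3 of which were called, at a median of -0.998. Of 7 markers of epidermis and molting, 6 were tested and all 6 were called higher, with a median of 3.85 and a summed signal of 91303 to 115828 units in mutant worms, against 7172 to 8691 units in N2 worms. The 11 tested probes of intestinal markers, the tissue in which many of the xenobiotic P450s are expressed, ran both ways, with 4 passing the adjusted p higher and 6 lower, 1 of them called, at a median of -0.28. Their summed signals overlapped, at 83949 to 93728 units in mutant worms and 87175 to 98005 units in N2 worms. All tested probes of these 4 lists were well above background in both genotypes on 6 of 6 arrays. The part of these marker changes in the ratios of the cytochrome P450 genes was not tested.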

How the data were processed

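Total RNA of mir-243(n4759) and N2 young adults was compared on 2-colour Agilent arrays (500 ng of RNA per sample). Per the file headers, the authors read the arrays with Agilent Feature Extraction 10.5.1.1, while their processing notes name version 8.5.1.1. The deposited values used were median intensities, not normalised, of spots and of the local background around them in each channel, and 0 or 1 quality marks. The authors also deposited processed intensities, a log10 ratio of Cy5 over Cy3 and log2 ratios of Cy5 over Cy3. The log2 ratios lay within 0.001 of the scanner's ratio for 88.0% to 90.8% of 20401 gene probes per array, with column medians of -0.11, 0.02, -0.08, 0.05, -0.10 and 0.07. For the authors' own ratios, the methods name background subtraction, LOWESS and a dye-swap analysis in Agilent software. Why the remaining log2 ratios differ from the scanner's was not worked out. Processed intensities and the log2 ratios entered as alternatives.

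Background was corrected with normexp (offset 50, fitted on spots without outlier marks), ratios were normalised by loess (span 0.3) and spots with outlier marks were left out, in limma 3.58.1 under R 4.3.3 and the package data.table (1.17.8). Spots of a probe were averaged, ratios were turned to mutant over wild type and both dye orientations were averaged per replicate. These orientations hold the same RNA, so 6 arrays gave n = 3. Signals per genotype were taken after loess and Aquantile. Probes well above background (at least 50% of spots) on at least 4 arrays in 1 genotype, with all 3 replicate values, were tested in a two-sided fit (lmFit, eBayes), and p-values were adjusted over 16272 probes by the Benjamini-Hochberg procedure. The fit was tested on simulated data. A bound was given where no array of a genotype was well above background. The number of arrays limits the precision.

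Names were matched to RefSeq genes on WBcel235 for 19057 of 20401 probes, used only for names and gene order. The build of the probes was not given in the sources used here. The members, gene lists and tests were chosen with earlier results of these data known. Values were given for daf-9, called members, the member with the largest ratio in each family, members with a known role, the 3 nearest to 0, dim members, called partner genes and emb-8, daf-12 and daf-36. Other members named by position were chosen after their values were seen. Alternatives covered background, normalisation, filters, outlier marks, dyes, replicates, slide and fold. Of the lists not described in the report, 4 sperm, 3 body muscle and 7 neuron probes were tested, and 2, 3 and 6 passed the adjusted p higher and 1, 0 and 1 lower. Of all tested probes, 42.2% passed higher and 41.3% lower.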

Additional observations from a re-analysis of the deposited data

Results flagged for a closer look

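Among the 42 named probes, 5 had 1 of 6 arrays farther from the others than Dixon's critical value for 6 values allows, judged by its gap to the nearest one as a share of the whole range. Chance gives such a flag in about 1 group in 20. For cyp-14A2, the log2 ratio in replicate 2 with Cy3 on the mutant was -0.96, against -1.54 to -1.36 on the other arrays. For cyp-34A9, replicate 1 with Cy5 on the mutant gave -1.41, against -1.08 to -0.95. For cyp-32B1, the same array gave -1.07, against -0.43 to -0.28. For cyp-35D1, replicate 3 with Cy3 on the mutant gave -0.29, against -0.58 to -0.52. For cyp-33E1, replicate 1 with Cy3 on the mutant gave -0.20, against 0.003 to 0.12. The arrays concerned came from all 3 replicates and from both dye orientations.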

How the results depend on the processing

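The counts of 9 probes called higher and 9 called lower were computed again under 15 other settings. With processed signals and with deposited ratios, 12 members were higher and 14 lower in each, and the median over members was -0.21 in each. Calls over all tested probes rose as well, from 2647 of 16272 to 4342 of 16272 and 4518 of 16812. Of these larger numbers, 2214 and 2321 were lower. The median over members was also -0.0341 with median centring, -0.0665 with no background correction, -0.0512 with no filter on dim probes, -0.14 with the mutant in Cy5 only and -0.0285 with the mutant in Cy3 only. A fold of at least 1.5 gave 13 members higher and 16 lower, and the shares over all tested probes at that fold are not given here. No fold threshold gave 23 higher and 31 lower, where 42.2% and 41.3% of all tested probes passed. Leaving out 1 replicate gave 9 higher and 8 to 9 lower, with a median of -0.10 to -0.0701. The one call lost was cyp-34A9, at -0.9999 without replicate 1, and it was also lost with the mutant in Cy3 only, at -0.97. cyp-13A10 was not called without background correction (0.98) or with the mutant in Cy5 only (0.84), and cyp-14A3 (-0.91) and 1 probe of cyp-31A2 (-0.92) were not called without background correction. Processed signals and deposited ratios also called cyp-33C2, cyp-33E2, cyp-33E3, cyp-35B1 and cyp-35D1 lower, at -1.94 to -1.08, and cyp-34A1, cyp-13A6 and cyp-13A2 higher, at 2.67, 2.22 and 1.91. Fitting 6 arrays with the replicate block gave 9 higher and 9 lower, as did the slide block. That pairing rests on the RNA shared by both arrays of a replicate. Ratios near 0 changed sign. cyp-34A5 was 0.00602 with processed signals and with deposited ratios, 0.00678 with normexp on all spots, 0.11 with median centring, 0.0448 with the mutant in Cy3 only and -0.0221 to 0.0212 on leaving out 1 replicate. cyp-25A4 was -0.000506 with processed signals and with deposited ratios, -0.00965 without background correction and -0.0303 to 0.0569 on leaving out 1 replicate. cyp-33E1 was -0.0497 with the mutant in Cy3 only and -0.0119 to 0.0686 on leaving out 1 replicate. cyp-29A3 was 0.0176 with median centring and 0.0428 with the mutant in Cy3 only. The cause was not tested. The mean signal of a spot was not run, since the columns used hold medians. Processed signals, to which no offset was added, gave larger ratios for dim probes, such as -3.40 for cyp-13B2, -2.32 for the dimmer probe of cyp-31A2 and -2.19 for cyp-14A3.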
